A study of Mus musculus with 6 samples.

Results

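Collagens and other extracellular matrix genes were followed in the liver of mice fed squalene. The list held 49 genes, found on the arrays through the RefSeq symbol of each probe's accession, with the brightest probe standing for a gene. A probe was matched for 47 of them, and 42 gave enough signal to be tested among 20659 features. No probe was matched to Col6a3 or Col12a1. The probes of Col8a1, Col15a1, Mmp13 and Lox were not well above background in any pool pair, and that of Col5a2 was above it in 2 pairs in each diet. Eln, elastin, passed in 2 squalene and 3 Western pairs, so it entered through the Western channel, where its mean level was higher.

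The 10 mice of the squalene group were male and lacked Apoe on a C57BL/6J background. For 11 weeks they ate a Western diet of 0.15% cholesterol and 20% palm oil with 1% squalene. The squalene dose was stated as 1 g/kg, with food at 3 g per mouse per day. The 9 Western mice were also male and Apoe-deficient and ate the Western diet without squalene. The Apoe deficiency and the Western diet were thus shared by both groups. Whole-liver RNA was combined into 4 pools per diet, each from 2 or 3 animals, and every array set 1 squalene pool against 1 Western pool in 2 colours. The 6 arrays made 4 pool pairs. Squalene was in Cy5 in pairs 1 and 4 and in Cy3 in pairs 2 and 3, and pairs 1 and 2 were measured on an array of each of the 2 slides.

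Fibrillar collagens form the tensile fibres of scar and of portal tracts, while basement membrane collagen, laminin, nidogen and perlecan form sheets under epithelium and around vessels. In the liver, hepatic stellate cells and portal fibroblasts are known as the main makers of fibrillar collagen, and platelet-derived growth factor and TGF-beta are known to drive them. Lysyl oxidases crosslink the fibres, matrix metalloproteinases cut them, and the TIMP proteins inhibit those enzymes.

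Most matrix genes had a mean ratio below 0, but the size and for many the sign differed between pool pairs. The mean log2 ratio of squalene over Western was below 0 for 39 of the 42 tested genes (92.9%), against 48.2% of all features. Eln is among the 39. With probes above background in all 4 pairs in both channels, which leaves Eln out, 38 of 41 were below 0 (48.6% of all features). The median over the 42 genes was -0.14, against 0.0028 over all features. The list was chosen with earlier results of these data known, so such contrasts with all features describe it and are not independent support. By pair, the median of the matrix genes was 0.05 in pair 1, -0.29 in pair 2, -0.25 in pair 3 and -0.05 in pair 4. The numbers below 0 were 18 of 42 in pair 1 (47.3% of all features), 36 in pair 2 (51.8%), 38 in pair 3 (52.2%) and 25 in pair 4 (48.6%).

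After Benjamini-Hochberg adjustment of the limma p-values over all features, no matrix gene and no other feature was under 0.05 (0 of 20659, or 0%). The smallest adjusted p among the 42 was 0.693, for Cpxm1. At an unadjusted limma p under 0.05 there were 13 matrix genes, all lower with squalene, against 2.47% of all features in either direction and 1.42% lower. Ratios below 0 in all 4 pairs were found for 8 matrix genes (3.04% of all features) and ratios above 0 in all 4 for none (3.34% of all features). For 3 of the 8, Col4a2, Lamc1 and Hspg2, the 2 arrays of pair 1 differed in sign and their mean was below 0. The limma SE is that of a mean over 4 pairs after a dye term has taken up any difference between the 2 orientations, so it can be far smaller than the SD between pairs. Without that term, 6 of the 13 stayed under an unadjusted p of 0.05, namely Col14a1, Hspg2, Col16a1, Fbln5, Cpxm1 and Mmp2, all lower, against 1.23% of all features in either direction and 0.658% lower in that fit. In whole liver, fewer cells of a type and less RNA per cell cannot be told apart.

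**Figure D1:**
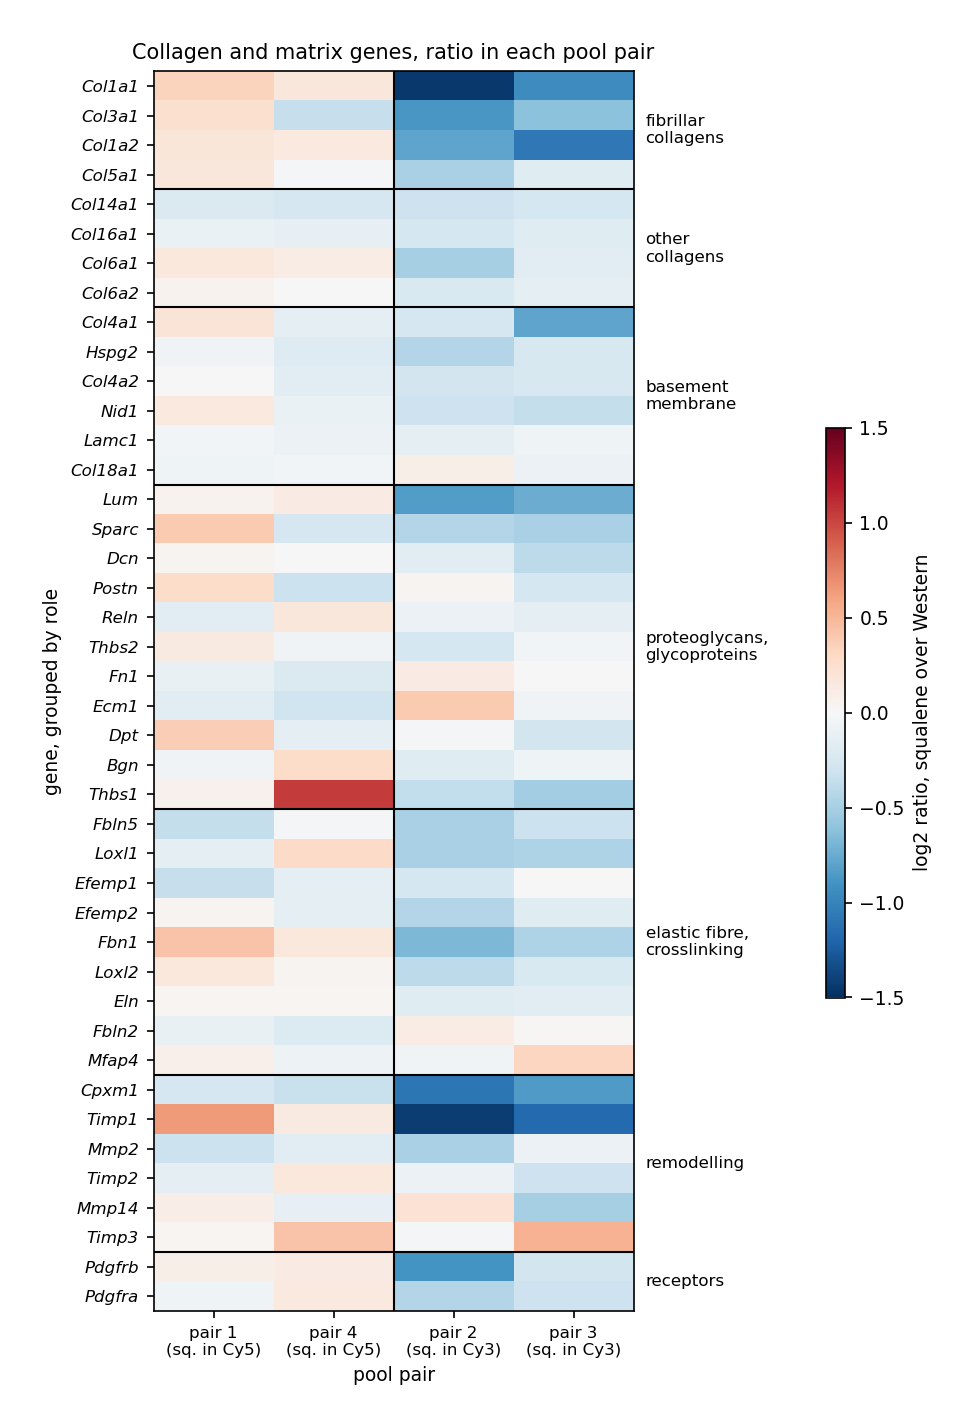
Log2 ratio of squalene over Western for the 42 tested matrix genes (rows, grouped by role) in the 4 pool pairs (columns, with pairs 1 and 4 left of pairs 2 and 3). Blue is lower with squalene and red is higher, and the deepest blue cells are Col1a1 and Timp1 in pair 2, at -1.45 and -1.42.

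The fibrillar collagens showed the widest spread between pairs of any role group. The 4 tested genes had a median ratio of -0.39, made of 0.21 in pair 1, -0.83 in pair 2, -0.78 in pair 3 and 0.06 in pair 4. All 4 were above 0 in pair 1 and below 0 in pairs 2 and 3. Levels are given below as log2 intensity of a diet's own channel and are compared within a gene only.

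Col1a1, the alpha 1 chain of type I collagen, had levels of 10.59, 9.83, 9.56 and 10.13 in the squalene pools of pairs 1 to 4, against 10.25, 11.28, 10.51 and 9.96 in the Western pools. The squalene pool of pair 3 was the lowest of the 8 and the Western pool of pair 2 the highest, and the groups overlapped. Its log2 ratios were 0.33, -1.45, -0.95 and 0.17, a mean of -0.47 ± 0.86 (SD, n = 4), with an adjusted limma p of 1. An exact two-sided sign-flip permutation test over the 4 pairs gave p = 0.5, and the smallest p that 4 pairs allow is 0.125.

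Col1a2, the alpha 2 chain that pairs with it, had levels of 11.94, 11.46, 10.91 and 11.55 in the squalene pools, against 11.76, 12.24, 11.98 and 11.41 in the Western pools. Again the squalene pool of pair 3 was the lowest and the Western pool of pair 2 the highest. Its ratios were 0.18, -0.79, -1.07 and 0.15, a mean of -0.38 ± 0.64 (SD, n = 4). Its promoter and that of Col3a1 are shown because the 2 fibrillar collagens had like ratios in pairs 2 and 3 but differ in base composition. Both are the 250 bases before the RefSeq start on GRCm38.p6, plus strand, at chr6:4505368-4505617 for Col1a2 and chr1:45311288-45311537 for Col3a1. Capitals mark the letters of a CCAAT box (CCAAT), a GC box (GGGCGG) or a TATA box (TATAAA) on either strand, wherever they fall in the window. Whether these sequences act in the promoter was not tested.
Col1a2: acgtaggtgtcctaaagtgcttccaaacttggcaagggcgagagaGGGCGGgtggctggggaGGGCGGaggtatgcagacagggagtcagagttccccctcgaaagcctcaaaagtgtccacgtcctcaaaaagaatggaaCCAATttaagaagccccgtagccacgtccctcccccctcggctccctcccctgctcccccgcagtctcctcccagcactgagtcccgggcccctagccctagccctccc
Col3a1: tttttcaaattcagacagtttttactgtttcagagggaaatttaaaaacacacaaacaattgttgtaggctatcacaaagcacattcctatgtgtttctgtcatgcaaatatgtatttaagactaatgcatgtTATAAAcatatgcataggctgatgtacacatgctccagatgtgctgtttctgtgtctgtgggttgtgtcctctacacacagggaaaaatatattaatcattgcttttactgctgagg
The Col1a2 window held 1 CCAAT box and 2 GC boxes at 62% G and C, and the Col3a1 window held 1 TATAAA sequence at 35.2%.

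Col3a1, type III collagen of reticular fibres, had levels of 10.90, 10.34, 10.04 and 10.29 in the squalene pools, against 10.66, 11.22, 10.65 and 10.63 in the Western pools. Its ratio was above 0 in pair 1 alone, at 0.24, and was -0.88, -0.61 and -0.34 in pairs 2 to 4. The mean was -0.40 ± 0.48 (SD, n = 4). Col5a1, a type V chain found inside type I fibres, had a mean of -0.13 ± 0.28 with the same signs as Col3a1.

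**Figure D2:**
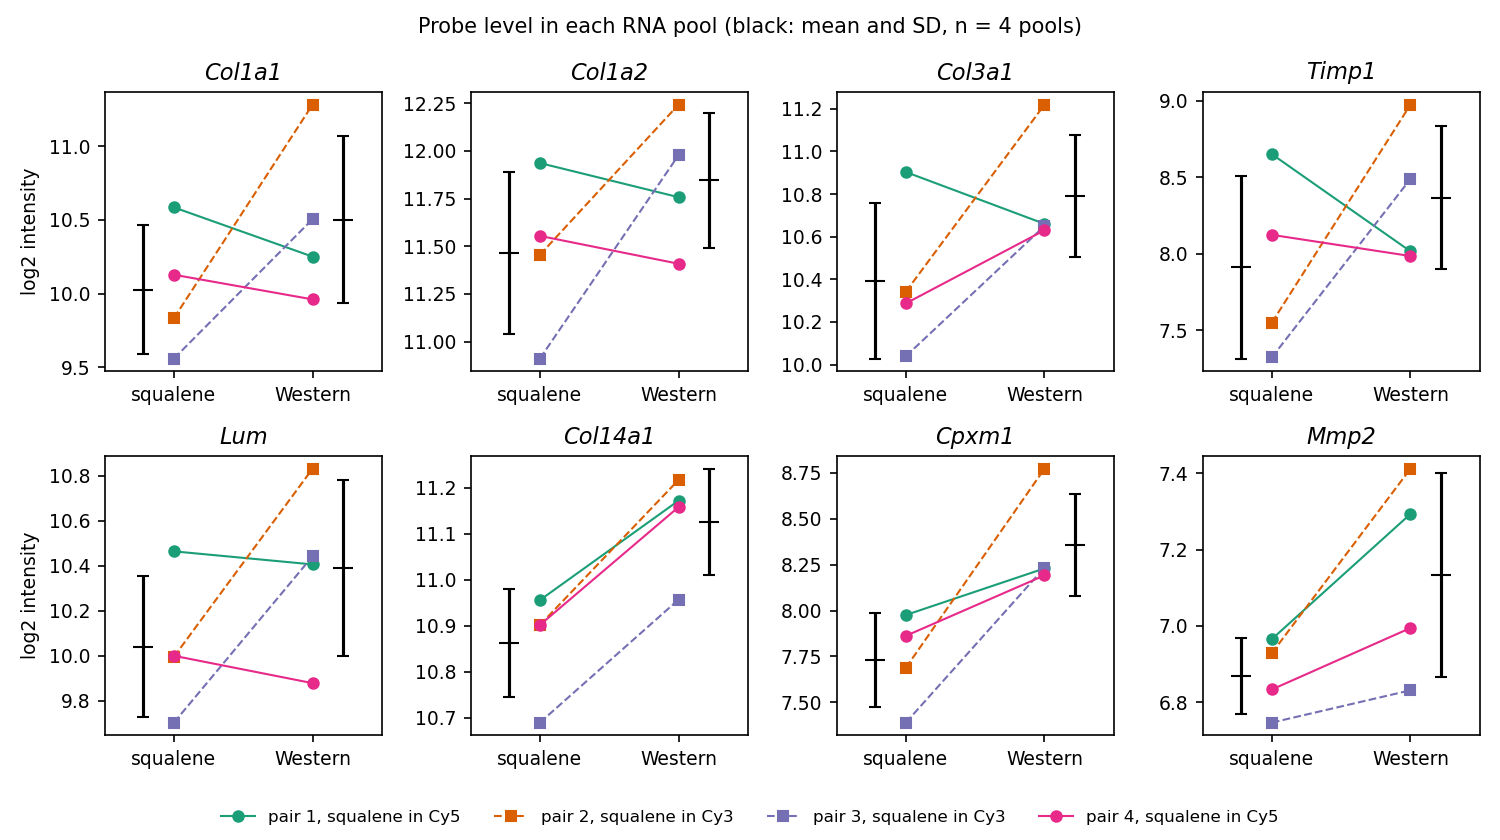
Log2 channel intensity of selected matrix genes in the 4 squalene pools (left) and 4 Western pools (right) of each panel, with lines joining the pools of a pair and bars at the mean and SD of 4 pools. For Col1a1 the squalene pool of pair 3 is the lowest, at 9.56, and the Western pool of pair 2 the highest, at 11.28.

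The 4 other interstitial collagens tested had a median ratio of -0.14, against -0.39 for the fibrillar collagens. Ratios were steadier between pairs for Col14a1, Col16a1 and Col6a2 than for Col6a1. Col14a1, a collagen that sits on the surface of type I fibres, had levels of 10.96, 10.90, 10.69 and 10.90 in the squalene pools, against 11.17, 11.22, 10.96 and 11.16 in the Western pools. The groups did not overlap, though the highest squalene pool and the lowest Western pool both round to 10.96, as for 2 of 42 matrix genes and 0.770% of all features. Its ratios were -0.22, -0.32, -0.27 and -0.26, a mean of -0.26 ± 0.04 (SD, n = 4) or 0.833 of the Western level. The exact sign-flip p was 0.125, the smallest possible, and the adjusted limma p was 1.

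Col16a1, a related collagen that bridges fibrils, had levels of 9.26, 9.17, 9.04 and 9.20 in the squalene pools, against 9.36, 9.44, 9.22 and 9.33 in the Western pools. Its ratios of -0.10, -0.27, -0.19 and -0.13 averaged -0.17 ± 0.07 (SD, n = 4). Every pair was below 0 for this probe, though the pools of the 2 diets overlapped. A dimmer kept probe of Col16a1 had ratios of 0.13, -0.23, -0.28 and 0.07, and the mean over both probes had an unadjusted limma p of 0.056. The type VI chain Col6a2 had ratios of 0.06, -0.22, -0.14 and 0.0032, a mean of -0.08 ± 0.13. Col6a1 had ratios of 0.16, -0.50, -0.17 and 0.11, a mean of -0.10 ± 0.30 (SD, n = 4), with the same signs as both type I chains.

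All 6 tested basement membrane genes had a mean below 0, with a median of -0.16, and 3 of them were below 0 in every pair. Hspg2, perlecan, the heparan sulphate proteoglycan of basement membranes, had levels of 9.88, 9.48, 9.53 and 9.86 in the squalene pools, against 9.94, 9.92, 9.77 and 10.05 in the Western pools. Its ratios of -0.06, -0.44, -0.24 and -0.19 averaged -0.23 ± 0.16 (SD, n = 4). The lowest 2 pools were those of squalene in pairs 2 and 3.

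Col4a2, a chain of the type IV collagen network, had levels of 9.40, 9.24, 9.00 and 9.15 in the squalene pools, against 9.40, 9.52, 9.23 and 9.31 in the Western pools. Its ratio in pair 1 was close to 0, at -0.00069, and the mean was -0.17 ± 0.12 (SD, n = 4). Its partner Col4a1 had ratios of 0.20, -0.26, -0.80 and -0.14, and so was above 0 in pair 1, where Col4a2 was close to 0. Lamc1, the laminin gamma 1 chain, had ratios of -0.05, -0.13, -0.06 and -0.08, with a mean of -0.08 ± 0.04 (SD, n = 4).

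Nid1, nidogen, which links laminin to type IV collagen, had levels of 9.60, 9.20, 9.04 and 9.25 in the squalene pools, against 9.45, 9.51, 9.40 and 9.35 in the Western pools. It was above the Western pool in pair 1 alone, and its ratios averaged -0.16 ± 0.23 (SD, n = 4). Col18a1, the parent of endostatin, which hepatocytes are known to make, had a mean of -0.03 ± 0.08.

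Among the 11 proteoglycans and matrix glycoproteins, 10 had a mean below 0, with a median of -0.05, and none had 1 sign in all pairs. Lum, lumican, a small leucine-rich proteoglycan that organises collagen fibrils, had levels of 10.46, 10.00, 9.70 and 10.00 in the squalene pools, against 10.41, 10.83, 10.44 and 9.88 in the Western pools. Its ratios of 0.06, -0.84, -0.74 and 0.12 averaged -0.35 ± 0.51 (SD, n = 4), the order of signs seen for both type I chains.

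Dcn, decorin, of the same family, had levels of 14.63, 14.37, 14.19 and 14.54 in the squalene pools, against 14.59, 14.53, 14.57 and 14.54 in the Western pools. Its squalene pools spread while the 4 Western pools lay within a narrow range, and the mean ratio was -0.13 ± 0.20 (SD, n = 4). Sparc, osteonectin, a collagen-binding glycoprotein, had levels of 14.64, 14.27, 14.02 and 14.22 in the squalene pools, against 14.25, 14.70, 14.50 and 14.47 in the Western pools. It was higher with squalene in pair 1, at 0.39, and its mean was -0.20 ± 0.40 (SD, n = 4).

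Thbs1, thrombospondin 1, which can activate latent TGF-beta, was 1 of 3 matrix genes with a mean above 0, beside Timp3 at 0.24 and Mfap4, a microfibril protein, at 0.07. Its levels were 7.33, 6.91, 6.53 and 7.98 in the squalene pools, against 7.27, 7.28, 7.06 and 6.93 in the Western pools. The ratio of 1.05 in pair 4 set it apart from the other pairs, at 0.06, -0.37 and -0.53, and the mean was 0.06 ± 0.71 (SD, n = 4). It falls outside the rule for named genes and was chosen after its values were seen.

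Of the 9 tested genes of elastic fibres and crosslinking, 8 had a mean below 0, with a median of -0.14. Fbln5, fibulin 5, needed for elastic fibre assembly, had levels of 8.65, 8.88, 8.56 and 8.90 in the squalene pools, against 9.01, 9.37, 8.88 and 8.94 in the Western pools. Its ratios of -0.36, -0.49, -0.32 and -0.03 averaged -0.30 ± 0.19 (SD, n = 4), or 0.812 of the Western level.

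Efemp2, fibulin 4, had ratios of 0.05, -0.45, -0.19 and -0.13, with a mean of -0.18 ± 0.20 (SD, n = 4). Efemp1, fibulin 3, had ratios of -0.35, -0.26, 0.0031 and -0.14, with a mean of -0.19 ± 0.15 (SD, n = 4). The pair nearest to 0 thus differed among these 3 genes, which are not all the fibulins tested. The lysyl oxidase-like enzymes Loxl1 and Loxl2 had means of -0.20 and -0.11.

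The remodelling genes held both the lowest and the highest mean ratio of the list. Cpxm1, a member of the carboxypeptidase family, had levels of 7.98, 7.69, 7.39 and 7.86 in the squalene pools, against 8.23, 8.77, 8.23 and 8.19 in the Western pools. Every squalene pool lay below every Western pool. Its ratios were -0.25, -1.08, -0.84 and -0.33, a mean of -0.63 ± 0.40 (SD, n = 4) or 0.647 of the Western level, with an adjusted limma p of 0.693 and an exact sign-flip p of 0.125. Its promoter is shown with that of Timp1, the other remodelling gene with large ratios in pairs 2 and 3. They are the 250 bases before the RefSeq start on GRCm38.p6, at chr2:130397630-130397879 on the minus strand for Cpxm1 and chrX:20869916-20870165 on the plus strand for Timp1, with motifs in capitals as above.
Cpxm1: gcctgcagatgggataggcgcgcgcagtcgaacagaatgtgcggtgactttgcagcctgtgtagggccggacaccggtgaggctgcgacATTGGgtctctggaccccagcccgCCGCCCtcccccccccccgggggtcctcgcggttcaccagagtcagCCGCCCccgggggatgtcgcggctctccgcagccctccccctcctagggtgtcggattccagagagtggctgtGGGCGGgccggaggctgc
Timp1: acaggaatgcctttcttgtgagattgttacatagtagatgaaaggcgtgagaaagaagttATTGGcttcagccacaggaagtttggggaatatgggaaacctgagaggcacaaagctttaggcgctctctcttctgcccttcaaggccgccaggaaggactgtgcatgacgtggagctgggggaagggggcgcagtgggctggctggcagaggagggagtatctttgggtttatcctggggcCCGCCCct
Cpxm1 held 1 CCAAT box and 3 GC boxes, and Timp1 held 1 of each.

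Timp1, an inhibitor of metalloproteinases, had levels of 8.65, 7.55, 7.32 and 8.12 in the squalene pools, against 8.02, 8.97, 8.49 and 7.99 in the Western pools. Squalene pools were higher in pairs 1 and 4 and lower in pairs 2 and 3, with ratios of 0.63, -1.42, -1.16 and 0.14. The mean of -0.45 ± 1.00 (SD, n = 4) was thus smaller than the spread between pairs.

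Mmp2, gelatinase A, had levels of 6.97, 6.93, 6.75 and 6.83 in the squalene pools, against 7.29, 7.41, 6.83 and 6.99 in the Western pools. Its ratios of -0.33, -0.48, -0.08 and -0.16 averaged -0.26 ± 0.18 (SD, n = 4). Timp3, the inhibitor that is bound to matrix, had ratios of 0.03, -0.03, 0.52 and 0.43, a mean of 0.24 ± 0.28 (SD, n = 4), which was the highest of the 42.

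The platelet-derived growth factor receptors, which mark liver mesenchymal cells, had their lowest ratios in pairs 2 and 3. Pdgfra had ratios of -0.07, -0.44, -0.31 and 0.14, with a mean of -0.17 ± 0.26 (SD, n = 4). Pdgfrb had ratios of 0.09, -0.90, -0.27 and 0.13, with a mean of -0.24 ± 0.48 (SD, n = 4).

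Pairs 2 and 3, both with squalene in Cy3, gave like ratios. For 33 of 42 matrix genes (30.0% of all features) the ratio was below 0 in both pairs 2 and 3, against 13 of 42 (26.5% of all features) in both pairs 1 and 4. A ratio above 0 in pairs 1 and 4 together with one below 0 in pairs 2 and 3 was found for 11 matrix genes (15.2% of all features). The mean of pairs 1 and 4 minus that of pairs 2 and 3 was above 0 for 35 of 42 genes, or 83.3%, against 52.9% of all features, with a median of 0.23 against 0.02.

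The difference was largest for Timp1, at 0.39 in pairs 1 and 4 and -1.29 in pairs 2 and 3. Col1a1 followed, at 0.25 in pairs 1 and 4 and -1.20 in pairs 2 and 3. The dye term had an unadjusted limma p under 0.05 for 15 of the 42 genes (15.3% of all features), and none passed after adjustment. Across the 42 genes, the ratios of pairs 2 and 3 correlated at r = 0.708, against 0.156 across all features. Those of pairs 1 and 4 correlated at r = 0.109, against 0.078. Between pairs of opposite orientation, r ran from -0.436 to -0.074 across the 42 genes and from -0.428 to -0.023 across all features. These values describe genes, which are not independent replicates, and pairs 2 and 3 share a dye orientation, as do pairs 1 and 4. Dye orientation and which pools were in a pair cannot be told apart here.

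**Figure D3:**
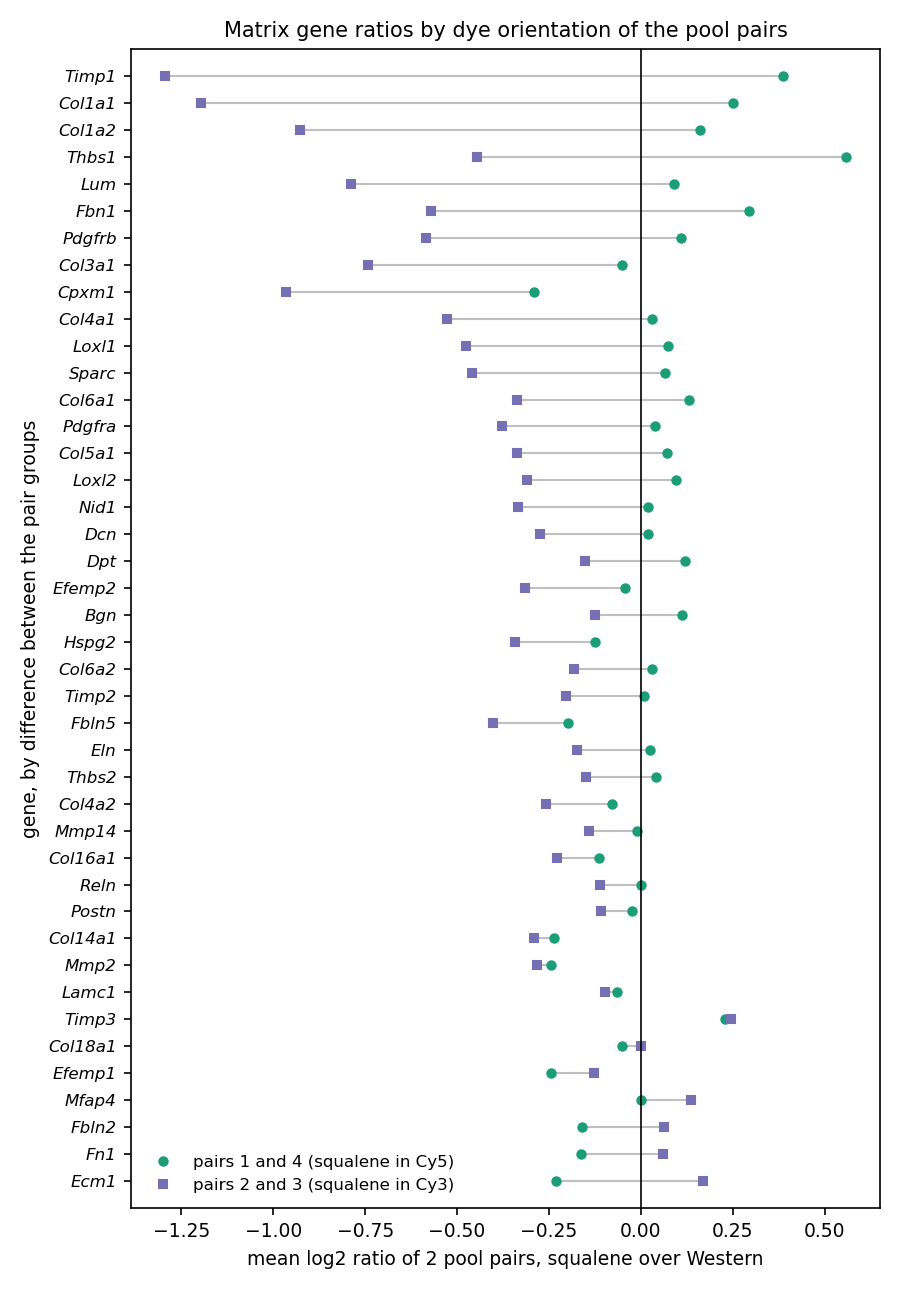
Mean log2 ratio of squalene over Western for each of the 42 tested matrix genes in pairs 1 and 4 (circles, squalene in Cy5) and in pairs 2 and 3 (squares, squalene in Cy3), each point a mean of 2 pool pairs. The genes run from Timp1, with 0.39 and -1.29, down to Ecm1, where the order of the points is turned round.

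Repeat arrays of the same pools were close for most matrix genes. The median absolute difference between the 2 arrays over the 42 genes was 0.07 in pair 1 and 0.06 in pair 2, on the log2 scale. Col1a1, for example, gave 0.35 and 0.31 on the arrays of pair 1 and -1.47 and -1.42 on those of pair 2. The largest differences were 0.32 in pair 1, for Reln, and 0.45 in pair 2, for Mmp2, at -0.71 and -0.26. For Col14a1, Eln, Mmp2 and Lamc1, 4 of the 42 genes, a repeat difference was larger than the range of the 4 pair ratios. The sign was the same on both arrays for 35 genes in pair 1 and 39 in pair 2. Of the 9 matrix genes with more than 1 kept probe, 8 had probes of 1 sign, the exception being Ecm1.

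RefSeq promoter windows were found for 29 of the 42 tested genes, 35 windows in all. A GC box was in 68.6% of them, against 53.7% of the windows of all tested symbols and 32.7% of all windows. A CCAAT box was in 34.3%, against 34.8% and 33.8%. TATAAA was in 11.4%, against 7.67% and 12.4%, and the AP-1 motif TGANTCA in 8.57%, against 5.01% and 6.75%. Both strands were searched in the 250 bases before each start.

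Genes that process collagen had ratios on both sides of 0. Of 20 collagen maturation genes, all tested, 11 had a mean below 0 and the median was -0.03, with 0.0054 in pair 2 and -0.03 in pair 3. At an unadjusted p under 0.05, 1 was lower and 2 were higher. Fkbp10, a collagen chaperone, had ratios of -0.06, -0.66, -0.38 and -0.09, with a mean of -0.30 ± 0.28 (SD, n = 4). P4ha1, a subunit of prolyl 4-hydroxylase, had ratios of 0.26, 0.50, 0.20 and 0.15, with a mean of 0.28 ± 0.15 (SD, n = 4).

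Of 18 tested genes of TGF-beta and PDGF signalling, 10 had a mean below 0, the median was -0.02 and none had an unadjusted p under 0.05. Pdgfc, a growth factor of the PDGF family, had a mean of -0.28 ± 0.38 (SD, n = 4). Ccn2, connective tissue growth factor, had ratios of 0.11, -0.07, -0.04 and 0.81, and so was highest in pair 4, as Thbs1 was.

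**Figure D4:**
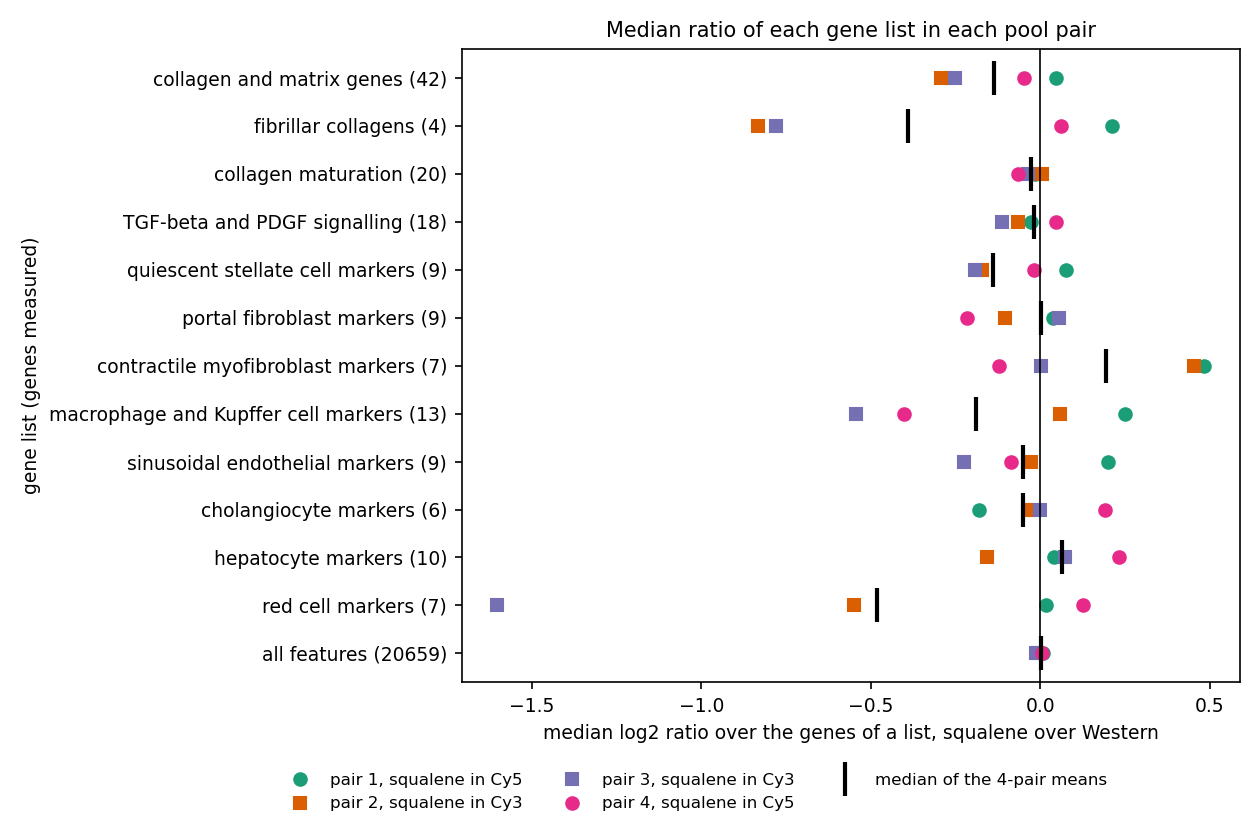
Median log2 ratio of squalene over Western over the tested genes of each list (number in brackets) in each pool pair, with a bar at the median of the 4-pair means. The fibrillar collagens lie at -0.83 and -0.78 in pairs 2 and 3, and the red cell markers at -1.60 in pair 3.

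Markers of several cell types also differed between pools. Of 13 tested macrophage and Kupffer cell markers, 12 had a mean below 0, with a median of -0.19, and by pair the median was 0.25, 0.06, -0.54 and -0.40. Their summed linear level ran between 63462 and 122240 in the squalene pools and between 74762 and 112270 in the Western pools. Gpnmb, a marker of lipid-laden macrophages, had ratios of 0.29, -1.65, -1.55 and -0.47, and Trem2, found in the same cells, had ratios of -0.28, -1.23, -0.85 and 0.15. No probe was matched to Cd68.

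Red cell markers were below 0 for 7 of 7 tested genes, with medians of 0.02, -0.55, -1.60 and 0.13 in pairs 1 to 4, with the low values of pairs 2 and 3 coming from the 5 globin genes. Alas2, of haem synthesis in red cell precursors, had ratios of 0.08 and 0.25 in pairs 2 and 3, and Slc4a1, the anion exchanger of red cells, had 0.15 and -0.24. Their summed level ran between 79306 and 168790 in the squalene pools and between 110990 and 259920 in the Western pools. Hba-a1, an alpha globin, had a mean of -0.54 ± 0.81 and Hba-a2 one of -0.50 ± 1.17 (SD, n = 4 each). The part of macrophages and of blood in the ratios of the matrix genes was not tested.

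Of the marker lists for matrix-making cells, 7 of 9 quiescent stellate cell markers had a mean below 0, with a median of -0.14. The summed level of these ran between 7882 and 10645 in the squalene pools and between 8903 and 10505 in the Western pools. Lhx2, a stellate cell transcription factor, had a mean of -0.22 ± 0.10 and Rgs5 one of 0.18 ± 0.21 (SD, n = 4 each), while Gfap was not well above background.

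Of 9 portal fibroblast markers, 4 had a mean below 0, with a median of 0.0015, and Clec3b and Msln had means of 0.11 ± 0.08 and -0.26 ± 0.64 (SD, n = 4 each). Clec3b was well above background in 4 squalene but only 2 Western pairs, so it entered through the squalene channel, where it was higher. Their summed level ran between 2262 and 2918 in the squalene pools and between 2139 and 3019 in the Western pools, and Gli1 was not well above background. Contractile myofibroblast markers had 1 of 7 means below 0 and a median of 0.19, with 0.48, 0.45, 0.0038 and -0.12 in pairs 1 to 4, and 6 of 7 were below 0 in pair 4. Their summed level ran between 4484 and 7084 in the squalene pools and between 4701 and 5976 in the Western pools. Tpm2, a tropomyosin, had a mean of -0.26 ± 0.16 and Tagln, transgelin, one of 0.15 ± 0.14 (SD, n = 4 each), while Lmod1 was not well above background.

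Sinusoidal endothelial markers had a mean below 0 for 8 of 9 genes (48.2% of all features), with a median of -0.05. By pair, 0, 5, 9 and 5 of the 9 were below 0 in pairs 1 to 4. Lyve1 and Gpr182 had means of -0.11 ± 0.46 and -0.11 ± 0.26 (SD, n = 4 each). Cholangiocyte markers had a mean below 0 for 4 of 6, also with a median of -0.05, and 6, 4, 3 and 2 were below 0 in pairs 1 to 4. Sox9 and Krt7 had means of -0.15 and -0.07. The 3 tested genes of the mesothelial list had a mean below 0, with Wt1 at -0.19 ± 0.52 and Krt8 at -0.06 ± 0.17 (SD, n = 4 each). Whether the Krt8 signal came from mesothelial cells was not tested. All 10 hepatocyte markers were measured, in these liver samples, with 1 below 0 and a median of 0.06, and Cps1 and Hpd each had a mean of 0.16.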

How the data were processed

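Liver RNA (200 ng per labelling) was measured on 2-colour arrays. Per the file headers, the scanner output came from Agilent Feature Extraction 10.7.3.1 and gave intensity of spots and background and log10 ratios of red over green. A value table of log10 ratios was also deposited; of its columns, the pair 1 ones were handled as a deposited score, since 2 cells in each were too large for a ratio and were left out. It equalled log10 of squalene over Western of uncorrected median signals within 0.001 for at least 99.93% of spots. Its column medians were 0.254 and 0.27 (pair 1), -0.217 and -0.257 (pair 2), -0.27 (pair 3) and 0.259 (pair 4). Other deposited columns held the software's marks for spots. Each array had 62976 spots, 3671 of them controls, and of these spots 46.6% to 51.9% per channel passed the software's background mark. None was saturated.

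In R 4.3.3 with limma 3.58.1 and data.table (version 1.17.8), normexp (offset 50) was applied to median signals and loess within arrays, with controls at weight 0 and outlier spots left out. Repeated spots, then the 2 arrays of pairs 1 and 2, were averaged, so that n = 4 pool pairs. Probes were kept where well above background in at least 3 of 4 pairs for either diet (26854 of 55681 probes). RefSeq (GRCm38.p6) named 26762 probes. lmFit and eBayes were fitted on all features with the squalene effect and a dye intercept. Levels are channel values after loess and Aquantile. The fit was tested on simulated data. The number of arrays limits the precision, and the sources used here do not give the animals of each pool.

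The members and gene lists were chosen with earlier results of these data known. Values per pair are given for Col1a1, Col1a2 and Col3a1 and for genes with 1 sign in all pairs. They are also given for the 3 of each role group with the smallest unadjusted p. Of each other list, the 2 with the smallest unadjusted p are named, with a mean or with values per pair. Others are named by mean or were chosen after their values were seen. Single-gene results of 2 listed genes are not reported here; the counts and medians of their lists keep them where measured. Alternatives covered the background correction, normalisation, starting values, probe filter, dye term, slide, probes per gene, variance model, features tested and left-out pairs.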

Additional observations from a re-analysis of the deposited data

How the results depend on the processing

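No matrix gene passed an adjusted limma p of 0.05 under any of 18 other settings (smallest 0.248, for Cpxm1), while over all features 2 did with median centring, 8 with the authors' deposited table and 4 with slide as a term. The count of 13 at an unadjusted p under 0.05 became 7 with median centring, 7 with the authors' deposited table and 6 without the dye term, and ran between 8 and 16 when 1 pair was left out, with 8 without pair 4. Between 35 and 37 of 42 genes were below 0 with a pair left out, with medians between -0.16 and -0.12. Under the remaining settings the median ran between -0.17 and -0.11. Of 755 gene values under the 18 settings, 736 kept their sign, and 32 of 42 genes kept it in all. Signs turned for Thbs1 with the scanner software's processed signals (-0.0085), Bgn with median centring (0.013) and the deposited table (0.013), Dpt with median centring (0.0065) and Ecm1 with the mean over probes (0.027). With 1 pair left out, the signs of 10 genes turned, in the ranges -0.087 to 0.074 for Bgn, -0.14 to 0.027 for Reln, -0.11 to 0.00038 for Thbs2, -0.070 to 0.020 for Col18a1, -0.14 to 0.081 for Ecm1, -0.027 to 0.16 for Mfap4, -0.25 to 0.10 for Mmp14, -0.14 to 0.11 for Dpt, -0.22 to 0.084 for Postn and -0.19 to 0.30 for Thbs1. The cause was not tested.

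Of 3 subsets added after seeing the data, pairs 1 and 4 alone gave 17 of 42 genes below 0 and a median of 0.021, with the opposite sign to the 4-pair mean for 22 genes. Pairs 2 and 3 alone gave 36 below 0 and a median of -0.29, with 5 opposite signs, and slide 1 alone gave 36 and -0.13, with 9 opposite signs. A list median below 0 was thus seen in pairs 2 and 3 alone but not in pairs 1 and 4 alone. The subsets of pairs 1 and 4 and of pairs 2 and 3 split by dye orientation, so dye and pools cannot be told apart in them. Slide 1 held an array of pair 1 and an array of pair 2, with opposite orientations. The ratios are paired by array, since each sets a squalene pool against a Western pool, and all tests ran on these ratios.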
